A study of Mus musculus with 32 samples.

Results

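The Wnt signalling and liver zonation genes described here are Axin2, Lgr5, Tbx3, Znrf3, Rnf43, Nkd1, Rhbg, Wif1, Wnt2 and Rspo3. They were chosen by name, with earlier results of these data known. Every non-control probe that the array files assign to 1 of these 10 genes was taken, which gave 17 of 56605 probes. Axin2, Lgr5, Tbx3, Rnf43 and Rspo3 have 2 probes each, Znrf3 has 3, and Nkd1, Rhbg, Wif1 and Wnt2 have 1 each. Liver RNA came from male F1 mice, born to C57BL/6J mothers and sampled at 21 weeks, and each mouse was measured on 1 Agilent one-colour (Cy3) array. The 4 groups of 8 mice were fed a Western diet with E171, a Western diet without it, a normal diet with E171, or a normal diet without it. E171 is food-grade titanium dioxide (fg-TiO2), mixed into the pellets of the mothers from before mating and then of their offspring, to reach a daily dose of 10 mg for each kg of body weight; control pellets had none. The Western diet, which the treatment notes call a high-fat diet, was fed for the last 16 weeks. Litters are not given in the labels, so the 8 mice of a group were taken as independent, which littermates need not be.

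In the liver, Wnt proteins and the R-spondin Rspo3 from endothelial and stellate cells around the central vein keep β-catenin active in the neighbouring (pericentral) hepatocytes. These hepatocytes express glutamine synthetase (Glul), the ammonium transporter Rhbg, the R-spondin receptor Lgr5 and the transcription factor Tbx3, while urea cycle enzymes are higher near the portal vein. Active β-catenin also raises inhibitors of its own pathway, among them Axin2, Nkd1, Znrf3 and Rnf43.

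Levels are log2 processed signals relative to the 75th percentile of all non-control probes on the same array, so that 0 is the level at that percentile. The level of 1 probe cannot be set against that of another. All 17 probes were well above background on at least 6 of 8 arrays of some group and entered the tests, which covered 23644 genes with 1 probe each. Arrays had 32164 to 37261 probes well above background, a 75th percentile signal of 175 to 342 intensity units and no saturated spot. Each of the 4 slides held 2 mice of every group. All 10 hepatocyte markers listed, among them Alb, Apoa1 and Ttr, passed the same filter. Whole liver was measured, so fewer cells of a type and less RNA per cell cannot be told apart.

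Promoter sequences were at hand for 5 of the 10 genes, in 6 windows of 250 bases that end just before a RefSeq transcription start (GRCm38.p6). The following 4 belong to Wif1, which was lower on the Western diet in both arms, and to Axin2, Rnf43 and Nkd1, of which Rnf43 varied with each of the others among mice of the same group. They lie at chr10:121033754-121034003, plus strand, at chr11:108920099-108920348, plus strand, at chr11:87662837-87663086, plus strand (the more upstream of its 2 windows), and at chr8:88527383-88527632, plus strand. Capitals mark CG dinucleotides, and all are written 5′ to 3′.
Wif1: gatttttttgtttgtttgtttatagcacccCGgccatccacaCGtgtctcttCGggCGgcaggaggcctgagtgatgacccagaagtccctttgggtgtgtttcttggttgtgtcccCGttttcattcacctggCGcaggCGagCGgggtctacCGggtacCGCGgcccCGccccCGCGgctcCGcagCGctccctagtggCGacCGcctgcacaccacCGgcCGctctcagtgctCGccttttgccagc
Axin2: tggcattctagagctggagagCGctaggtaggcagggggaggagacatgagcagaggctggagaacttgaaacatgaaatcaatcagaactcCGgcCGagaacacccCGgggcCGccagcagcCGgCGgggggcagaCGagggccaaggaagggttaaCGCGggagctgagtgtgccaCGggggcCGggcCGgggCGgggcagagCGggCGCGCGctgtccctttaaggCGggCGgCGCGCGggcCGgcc
Rnf43: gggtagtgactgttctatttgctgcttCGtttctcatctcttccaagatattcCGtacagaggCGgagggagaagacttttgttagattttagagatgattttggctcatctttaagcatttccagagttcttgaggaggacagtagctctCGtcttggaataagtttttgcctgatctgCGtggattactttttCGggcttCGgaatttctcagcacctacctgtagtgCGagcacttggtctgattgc
Nkd1: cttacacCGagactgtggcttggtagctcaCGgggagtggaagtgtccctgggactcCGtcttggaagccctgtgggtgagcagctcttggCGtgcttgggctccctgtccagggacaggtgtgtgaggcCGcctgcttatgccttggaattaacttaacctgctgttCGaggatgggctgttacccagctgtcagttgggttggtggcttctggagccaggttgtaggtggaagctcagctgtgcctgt
The windows hold 21 CG dinucleotides in Wif1, 24 in Axin2, 8 in Rnf43 and 6 in Nkd1, beside a median of 6 over all 32851 mouse windows of this length. Wnt2, whose window is not shown, has 20. The sequences CTTTGAT and CTTTGAA, forms of the motif bound by TCF and LEF factors, were searched on both strands. Neither occurs in the 6 windows of these genes, and 7.5% of all windows hold at least 1 of them (3.2% CTTTGAT, 4.5% CTTTGAA). The 2 forms differ in their last base, so they cannot match at the same position.

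On the Western diet Rhbg and Rspo3 were higher and Wif1 was lower, both among E171 mice and among control mice. Axin2 was higher on this diet among E171 mice and Lgr5 was lower among control mice, and for neither did the difference between the arms pass its test. Among E171 mice 3 of the 10 genes rose and 1 fell (limma, adjusted p under 0.05), against 22.1% of all tested genes higher, 31% lower and 53.2% called in all. Among control mice 2 rose and 2 fell, against 18.5% higher, 28.7% lower and 47.3% called in all. Averaged over E171 and control mice, 3 rose (Axin2, Rhbg and Rspo3) and 1 fell (Wif1), against 24.9% higher, 40.7% lower and 65.6% called in all. In no diet comparison was the share of the 10 genes that passed (4 of 10) above that of all genes. Their median log2 difference was 0.21 among E171 mice and -0.07 among control mice, beside -0.10 for all tested genes in both. Of the genes called among control mice 39.2% were higher on the Western diet, and 54.5% were so in the deposited values, and averaged over both arms 38% and 48.4%. The plot of levels by mouse shows the 10 genes in the 4 groups.

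**Figure D1:**
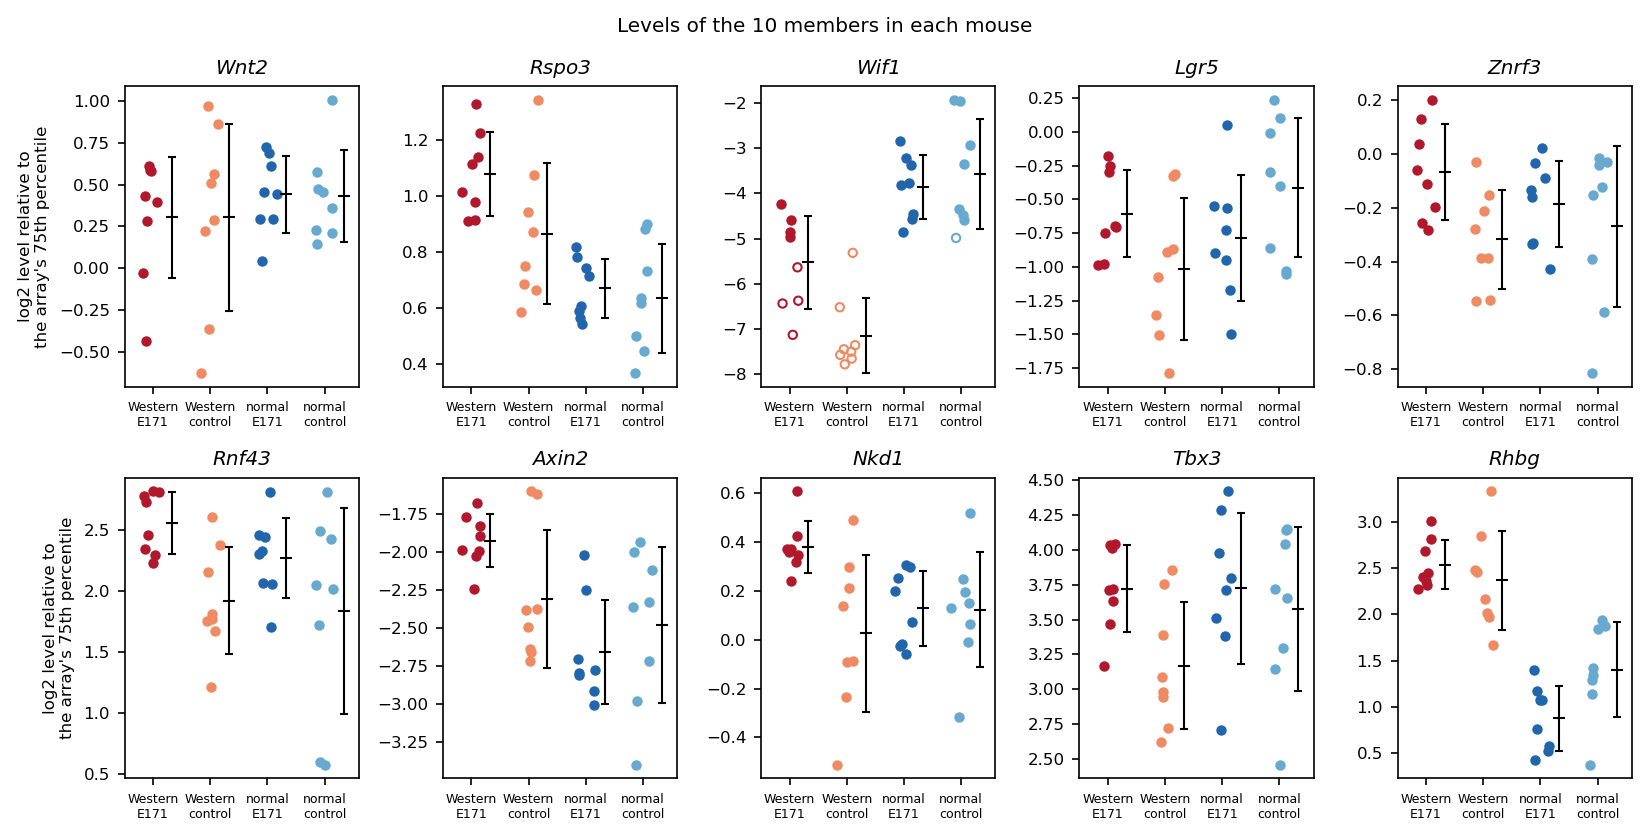
Level of each of the 10 genes (y axis, log2 signal relative to the 75th percentile of the array, own scale per gene) in each of the 32 mice, by group (x axis). Filled points are arrays on which the probe was well above background and open points are the others, and bars give the mean ± SD of 8 mice. Rhbg lies higher in Western diet mice, and Wif1 lies lower, with 0 of 8 Western diet control mice well above background.

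Wif1, a secreted protein that binds Wnt ligands and holds them off their receptors, was the 1 gene of the 10 that fell in both arms. Its probe (chr10:120537079-120537138, mm9) was well above background in 4 of 8 Western diet E171 mice, 0 of 8 Western diet control mice, 8 of 8 normal diet E171 mice and 7 of 8 normal diet control mice. Lowest, median and highest levels were -7.13, -5.30 and -4.23 in Western diet E171 mice and -4.85, -3.79 and -2.85 in normal diet E171 mice. They were -7.78, -7.47 and -5.32 in Western diet control mice, and -4.99, -3.84 and -1.93 in normal diet control mice. The control groups did not overlap, and among E171 mice 6 of the 8 Western diet values lay below every normal diet value. Of all tested genes, 9.95% had control groups without overlap. No Western diet control array measured the probe above background, so the size of the fall in these mice was not measured. Means were -7.14 on the Western diet and -3.57 on the normal diet (limma, adjusted p = 2.78e-07). With the Western diet control values raised to a floor, Wif1 was 3.53-fold lower. The floor was the lowest signal well above background on each of these arrays, or the probe's own signal where that was higher. Brighter signals can also fail the background call, as Wif1 did in normal diet control replicate 8 (-4.99), beside a mean floor of -5.39. The 3.53-fold is therefore not a strict minimum, and the alternatives below gave smaller differences. Among E171 mice the difference was -1.66 ± 0.46 (SE, n = 8 each; limma, adjusted p = 0.00334). Wif1 was lower on the Western diet on all 4 slides in both arms, by log2 differences of -3.63 to -0.42 among E171 mice. With normexp background correction and an offset of 50 units the difference was -0.29 among E171 mice and -0.59 among control mice, and in the deposited values -0.61 among E171 mice and -1.26 among control mice, all past the threshold. The values among control mice rest on signals not well above background on the Western diet. Those among E171 mice do so in part, with 4 of 8 Western diet arrays well above background.

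Rspo3 is the R-spondin of the central vein and binds Lgr4 and Lgr5. Levels of its brighter probe (chr10:29172930-29172989, mm9) were 0.91, 1.07 and 1.33 (lowest, median, highest) in Western diet E171 mice and 0.54, 0.66 and 0.82 in normal diet E171 mice, with no overlap. Of all tested genes, 18% had E171 groups without overlap. In control mice the levels were 0.59, 0.81 and 1.35 on the Western diet and 0.37, 0.63 and 0.90 on the normal diet, so that 3 of 8 Western diet values lay above every normal diet value. Rspo3 rose by 0.41 ± 0.09 among E171 mice (1.33-fold; limma, adjusted p = 0.000481) and by 0.23 ± 0.09 among control mice (1.17-fold; adjusted p = 0.0403). By slide the difference was 0.37 to 0.44 among E171 mice. Among control mice it was 0.61, 0.24 and 0.33 on slides 1 to 3 and -0.27 on slide 4. The call among control mice was lost without any 1 of 9 mice, Western diet control replicates 1, 2, 4 and 6 and normal diet control replicates 1, 2, 5, 6 and 8. Without Western diet control replicate 1 the difference was 0.16 (adjusted p = 0.118). The second Rspo3 probe (chr10:29172236-29172295) was well above background on 19 of 32 arrays and gave -0.08 among E171 mice and -0.18 among control mice (adjusted p = 0.809 and 0.561 over all probes).

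Wnt2, a Wnt ligand of liver endothelial cells, did not pass in any comparison of groups. Its levels (chr6:17939284-17939343, mm9) were -0.43, 0.41 and 0.61 in Western diet E171 mice, -0.63, 0.40 and 0.97 in Western diet control mice, 0.04, 0.45 and 0.72 in normal diet E171 mice, and 0.15, 0.41 and 1.01 in normal diet control mice. All 4 groups overlapped. The diet difference was -0.14 among E171 mice (95% interval -0.51 to 0.23) and -0.13 among control mice (-0.50 to 0.24).

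Lgr5, the R-spondin receptor, fell on the Western diet in control mice, and its 2 probes differed. Its brighter probe (chr10:114887403-114887462, mm9) stood at -0.99, -0.70 and -0.18 in Western diet E171 mice and at -1.50, -0.81 and 0.06 in normal diet E171 mice. In control mice it stood at -1.79, -0.98 and -0.32 on the Western diet and at -1.05, -0.35 and 0.24 on the normal diet. In control mice 4 of 8 Western diet values lay below every normal diet value and the groups overlapped. Lgr5 fell by 0.60 ± 0.22 in control mice (limma, adjusted p = 0.0274) and was lower there on all 4 slides (-1.27 to -0.12). Among E171 mice the difference was 0.18 (95% interval -0.28 to 0.64, adjusted p = 0.509). The call in control mice was lost without any 1 of 6 mice, Western diet control replicates 3, 5 and 7 and normal diet control replicates 1, 4 and 7, with an adjusted p of up to 0.0649. The dimmer Lgr5 probe (chr10:114899782-114899841), well above background on 30 of 32 arrays, differed by 0.03 ± 0.45 in control mice (adjusted p = 0.959).

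Znrf3 and Rnf43 are membrane ubiquitin ligases that remove Frizzled receptors from the cell surface. Znrf3 levels were -0.28, -0.09 and 0.20 in Western diet E171 mice, -0.55, -0.33 and -0.03 in Western diet control mice, -0.43, -0.15 and 0.02 in normal diet E171 mice, and -0.81, -0.14 and -0.02 in normal diet control mice. Its diet difference was 0.12 among E171 mice and -0.05 among control mice, with adjusted p of 0.349 and 0.73, and its other 2 probes (chr11:5176747-5176806 and chr11:5180904-5180963, mm9) did not pass either. Rnf43 (chr11:87548944-87549003) stood at 2.23, 2.59 and 2.82 in Western diet E171 mice, 1.22, 1.79 and 2.61 in Western diet control mice, 1.71, 2.32 and 2.81 in normal diet E171 mice, and 0.58, 2.03 and 2.82 in normal diet control mice. The SD of Rnf43 was 0.25 in Western diet E171 mice and 0.84 in normal diet control mice. The diet difference of Rnf43 was 0.29 among E171 mice (adjusted p = 0.336) and 0.09 among control mice (adjusted p = 0.797). Its dimmer probe (chr11:87543959-87544018) gave -0.54 in control mice (adjusted p = 0.0578), a difference of the other sign.

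Axin2, a scaffold of the β-catenin destruction complex and a standard readout of Wnt signalling, had its highest mean in Western diet E171 mice. Levels of the brighter probe (chr11:108811980-108812039, mm9) were -2.24, -1.94 and -1.68 in Western diet E171 mice and -3.01, -2.79 and -2.02 in normal diet E171 mice, where 6 of 8 Western diet values lay above every normal diet value. In control mice they were -2.72, -2.44 and -1.60 on the Western diet and -3.40, -2.35 and -1.94 on the normal diet, where 2 of 8 Western diet values lay above every normal diet value. Axin2 rose by 0.73 ± 0.19 among E171 mice (1.66-fold; limma, adjusted p = 0.00183), on each slide by 0.34 to 1.01. With normexp background correction the difference was 0.33 (adjusted p = 0.0029). Among control mice the difference was 0.17 ± 0.19 (adjusted p = 0.473). The dimmer Axin2 probe (chr11:108803927-108803986), well above background on 16 of 32 arrays, gave 0.51 ± 0.33 among E171 mice and did not pass (adjusted p = 0.196). That Axin2 responded to the diet differently in the 2 arms was tested as the interaction, 0.56 ± 0.27, and did not pass (adjusted p = 0.956).

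Nkd1, which binds Dishevelled and dampens Wnt signalling, had levels (chr8:91116160-91116219, mm9) of 0.24, 0.36 and 0.61 in Western diet E171 mice, -0.51, 0.03 and 0.49 in Western diet control mice, -0.06, 0.14 and 0.31 in normal diet E171 mice, and -0.31, 0.14 and 0.52 in normal diet control mice. Among E171 mice 7 of 8 Western diet values lay above every normal diet value, and the difference of 0.25 ± 0.11 was just outside the threshold (limma, adjusted p = 0.052). It passed under 8 of 11 other processing settings (adjusted p of 0.0206 to 0.0845 over the 11), and also without any 1 of 9 mice: Western diet E171 replicate 3, Western diet control replicates 1, 5 and 6, normal diet E171 replicates 3, 4 and 5, and normal diet control replicates 4 and 5. Among control mice the Nkd1 difference was -0.10 (adjusted p = 0.479). Tbx3, a T-box factor of pericentral hepatocytes, stood (chr5:120134511-120134570) at 3.16, 3.71 and 4.04 in Western diet E171 mice, 2.62, 3.03 and 3.85 in Western diet control mice, 2.71, 3.76 and 4.42 in normal diet E171 mice, and 2.46, 3.69 and 4.15 in normal diet control mice. All 4 groups overlapped. The diet difference of Tbx3 was 0.00 among E171 mice (adjusted p = 0.995) and -0.41 ± 0.23 among control mice (adjusted p = 0.153), and the second probe (chr5:120132985-120133044) gave -0.06 and -0.52. Without normal diet control replicate 7, the lowest Tbx3 value of its group, Tbx3 was called lower among control mice at -0.57 (adjusted p = 0.0343).

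Rhbg, which carries ammonium into pericentral hepatocytes, rose most. Its levels (chr3:88047265-88047324, mm9) were 2.27, 2.42 and 3.01 in Western diet E171 mice and 0.43, 0.92 and 1.4 in normal diet E171 mice, with no overlap. In control mice they were 1.67, 2.31 and 3.33 on the Western diet and 0.38, 1.39 and 1.93 on the normal diet, where 7 of 8 Western diet values lay above every normal diet value. Rhbg rose by 1.66 ± 0.21 among E171 mice (3.16-fold; limma, adjusted p = 1.2e-07) and by 0.96 ± 0.21 among control mice (1.95-fold; adjusted p = 0.000364). It was higher on the Western diet on all 4 slides, by 1.1 to 2 among E171 mice and by 0.17 to 1.84 among control mice. The call held without each of the 32 mice in turn and under each of 11 other processing settings in both arms.

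**Figure D2:**
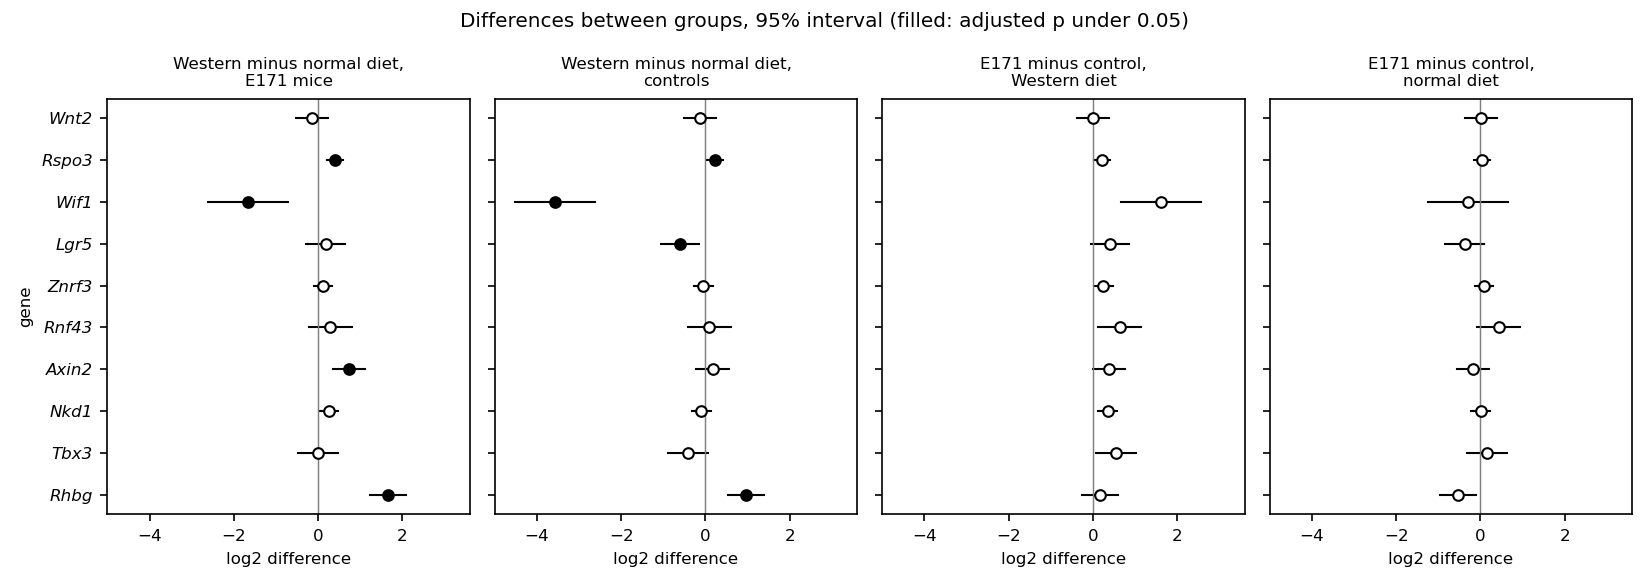
Log2 difference (x axis) of each of the 10 genes (y axis) for the Western against the normal diet and for E171 against control, with 95% intervals from the limma fit. Filled points passed an adjusted p of 0.05. The 4 filled points in each diet panel are Rspo3, Wif1, Axin2 and Rhbg among E171 mice and Rspo3, Wif1, Lgr5 and Rhbg among control mice, and no point is filled in the E171 panels. Wif1 was well above background in 0 of 8 Western diet control mice, so its points that involve them are not measured sizes. Its diet point among E171 mice rests in part on such signals, with 4 of 8 Western diet E171 mice well above background.

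None of the 10 genes passed the threshold between E171 and control mice on either diet. On the Western diet 0 of 10 passed (limma), against 0.381% of all tested genes, and 6 of 10, Wif1 among them, had an unadjusted p under 0.05, against 11.9% of all genes. Of the 10 differences 9 were positive, all but that of Wnt2, with a median of 0.37 beside 0.01 for all genes. No gene had groups without overlap (0.182% of all genes did). The 10 genes were chosen with earlier results of these data known, and several varied together among mice, as described below. These counts therefore do not set them apart from other genes. Wif1 was well above background in 4 of 8 E171 mice and 0 of 8 control mice. No size is given for it, because the mean of the E171 group lies below the background floor used for the control group. No difference in its level was measured. Its adjusted p was 0.103, and 0.0786 to 0.669 over 10 other processing settings.

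Among the other genes Nkd1 had the lowest adjusted p on the Western diet, with 0.35 ± 0.11 (95% interval 0.13 to 0.58, adjusted p = 0.13) and Rnf43 with 0.64 ± 0.25 (0.13 to 1.15, adjusted p = 0.277). Tbx3 stood at 0.55 ± 0.23, Znrf3 at 0.25 ± 0.11 and Rspo3 at 0.21 ± 0.09, with adjusted p of 0.329, 0.331 and 0.348. Other probes of 2 of these genes had the other sign, at -0.16 for a Znrf3 probe that was well above background on all 32 arrays and at -0.16 for the dimmer Rspo3 probe (adjusted p = 0.711 and 0.843 over all probes). All 8 E171 values lay above the control median for the brightest probes of Nkd1, Rnf43, Tbx3, Znrf3, Rspo3 and Axin2. The share of all genes with this pattern was not computed. Among their other probes all 8 values did so for Tbx3 alone. The number was 7 for Axin2, 5 for Rnf43, 3 for Rspo3, and 6 and 4 for Znrf3. On each of the 4 slides Nkd1 (0.12 to 0.74), Rnf43 (0.41 to 0.90), Tbx3 (0.16 to 1.17) and Lgr5 (0.11 to 0.94) were higher with E171, while none of these passed over all genes. Wnt2 differed by 0.00 (95% interval -0.37 to 0.37).

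On the normal diet 0 of 10 genes passed between E171 and control mice (limma), against 0% of all tested genes, and 1 of 10 had an unadjusted p under 0.05, against 4.06% of all genes. That gene was Rhbg, at -0.53 ± 0.21 (95% interval -0.95 to -0.10, adjusted p = 1) and lower on all 4 slides (-0.65 to -0.45). Groups overlapped for all 10 genes, and 0% of all tested genes had groups without overlap. Averaged over both diets 0 of 10 passed, against 0.368% of all genes, with Rnf43 at 0.54 ± 0.18 lowest in adjusted p (0.193) and 4 of 10 at an unadjusted p under 0.05 against 11%. The genes called on the Western diet were higher with E171 in 55.6%, and in 37.3% in the deposited values, and averaged over both diets in 50.6% and 27.7% (64% with the percentile taken over probes well above background on all arrays). The interaction of E171 and diet passed for 0 of 10 and for 0% of all genes. It was positive for 9 of 10, with a median of 0.38 beside 0.00 for all genes, and 5 of 10 had an unadjusted p under 0.05 against 5.17% of all genes. These 5 were Wif1, for which no size is given, Lgr5 at 0.78 ± 0.32, Rhbg at 0.70 ± 0.29, Axin2 at 0.56 ± 0.27 and Nkd1 at 0.35 ± 0.15, with adjusted p of 0.851 to 0.956. The dimmer Lgr5 probe gave an interaction of 0.003 ± 0.64, and for E171 on the normal diet it stood at 0.72, against -0.37 for the brighter probe (adjusted p = 0.999 for both over all probes). The contrasts of this design share control groups, so these differences are not independent of those above. For the reasons given for the Western diet, the counts of unadjusted p do not set the 10 genes apart from others.

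Ranked by group mean, Axin2, Rhbg and Rspo3 followed the same order down to the second place, with Western diet E171 mice first and Western diet control mice next. For Rhbg the means were 2.54 in Western diet E171 mice, 2.37 in Western diet control mice, 0.88 in normal diet E171 mice and 1.4 in normal diet control mice. Of neighbours in the order of these means 1 pair differed past the threshold, the Western diet controls and the normal diet controls, while no neighbours differed in Axin2 or Rspo3. Wif1 had the opposite order of diets. Its Western diet means were -5.53 in E171 mice (4 of 8 well above background) and -7.14 in control mice (0 of 8). On the normal diet they were -3.86 in E171 and -3.57 in control mice. The Western and normal diet E171 mice were the 1 pair of neighbours in this order that differed. Western diet E171 mice also had the highest means of Znrf3 (-0.07), Rnf43 (2.56) and Nkd1 (0.38), none apart from the next group by the test. Lgr5 had means of -0.61 in Western diet E171 mice, -1.02 in Western diet control mice, -0.79 in normal diet E171 mice and -0.41 in normal diet control mice, and no neighbours in their order differed. The test between Western diet E171 mice and normal diet control mice, used for 2 such pairs, called 50.7% of all genes, and that between Western diet control and normal diet E171 mice called 51.9%.

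Mice of the same group differed in several of these genes at once. To measure this, each mouse's deviation from its group mean was correlated between genes over the 32 mice, with 100000 permutations of mice within groups and Benjamini-Hochberg adjustment over the 36 pairs. Wif1 was left out because it was well above background on 19 of 32 arrays. Of the 36 pairs 33 were positive, and 10 passed by Pearson's r, all of them positive. The same shares over pairs of all tested genes were not computed, so these counts do not set the genes apart from others. Lgr5 and Nkd1 were closest, with r = 0.842 and Spearman's rho = 0.857 (permutation p = 1e-05 for both, the smallest that 100000 permutations can give, adjusted p = 0.00036). Without the 2 mice furthest from the median of Lgr5 r was 0.838, with slide means removed 0.805, with quantile normalization 0.841, among E171 mice 0.765 and among control mice 0.897.

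A second trio was Axin2, Tbx3 and Rnf43. Axin2 and Tbx3 had r = 0.725 and rho = 0.688 (permutation, adjusted p = 0.0009 and 0.00144), and r = 0.629 without the 2 mice furthest in Axin2. Rnf43 and Axin2 had r = 0.719 and rho = 0.688 (adjusted p = 0.00144 for both), and r = 0.607 without normal diet control replicates 5 and 7. Rnf43 and Tbx3 had r = 0.596 and rho = 0.575 (adjusted p = 0.009 and 0.00828), with r = 0.464 without these same 2 mice and 0.239 among E171 mice alone. Normal diet control replicates 5 and 7 had the lowest Rnf43 values of all mice, and replicate 7 also the lowest Axin2 and Tbx3 values of its group.

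Nkd1 joined Rspo3 (r = 0.634, rho = 0.552), Rnf43 (r = 0.59, rho = 0.604) and Znrf3 (r = 0.477, rho = 0.505), with permutation adjusted p of 0.00871, 0.00855 and 0.0398 for r. The relation of Rspo3 and Nkd1 was 0.781 among control mice and 0.103 among E171 mice, and without Western diet control replicate 1 and normal diet control replicate 7 it was 0.536. Between Znrf3 and Nkd1 r was 0.334 without normal diet control replicates 5 and 8. Lgr5 also went with Rnf43 (r = 0.529, rho = 0.634, adjusted p = 0.0269 and 0.00324). With slide means removed r was lower for Lgr5 and Rnf43 (0.419) and for Rnf43 and Nkd1 (0.492). It was higher for Rspo3 and Nkd1 (0.717) and for Znrf3 and Nkd1 (0.579). Between Lgr5 and Znrf3 r was 0.483 and rho 0.453, of which only r passed (adjusted p = 0.0398 and 0.058). Wnt2 and Rhbg had r = 0.485 and rho = 0.469 (adjusted p = 0.0398 and 0.0425). Rhbg had r of -0.134 with Axin2, -0.001 with Tbx3 and -0.021 with Znrf3. Western diet control replicate 1 was among the 2 highest of its group in all 9 genes. Normal diet control replicate 5 and normal diet E171 replicate 1 were each among the 2 lowest of their groups in 7 of 9. Replicate spread was smallest in Western diet E171 mice for Axin2 (SD 0.18), Lgr5 (0.32), Nkd1 (0.11), Rhbg (0.27), Rnf43 (0.25) and Tbx3 (0.31), with no test of the spread.

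**Figure D3:**
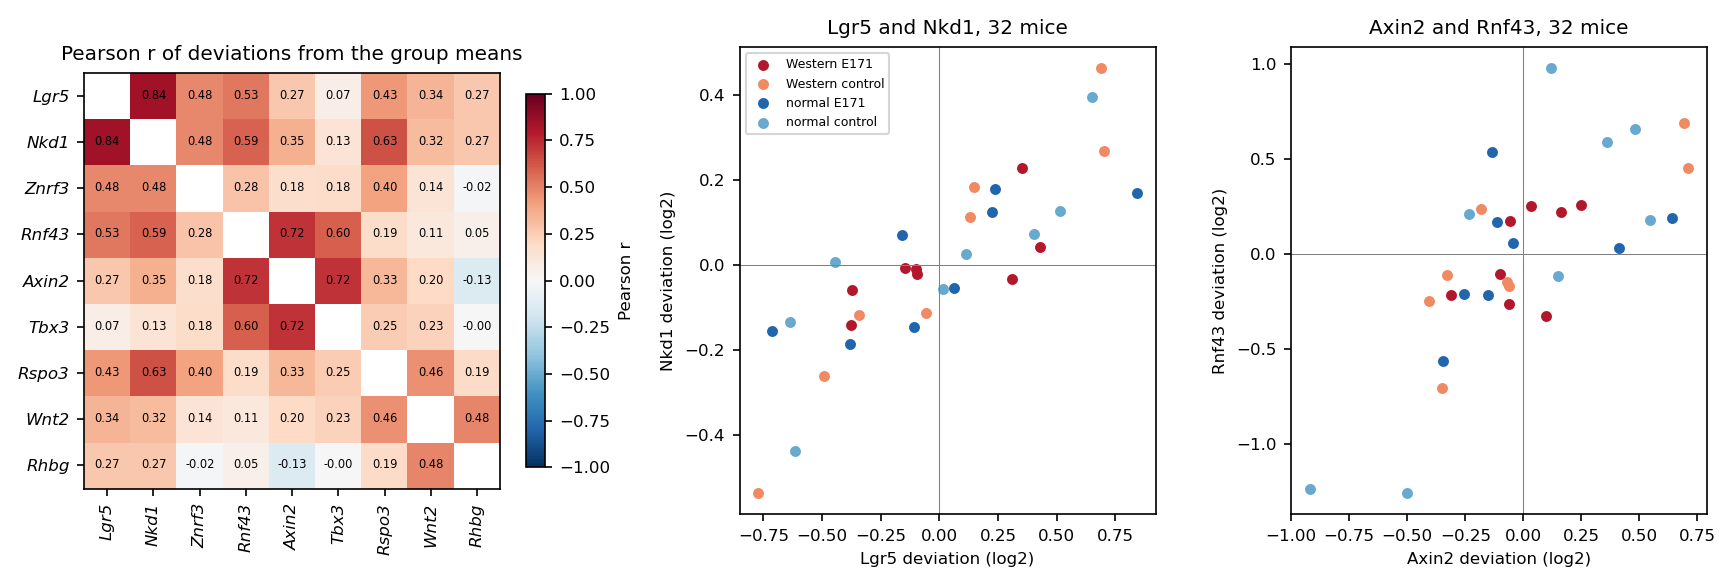
Left, Pearson's r between the deviations of 9 genes from their group means over 32 mice (colour and numbers); middle and right, the deviations (log2) of Nkd1 against Lgr5 and of Rnf43 against Axin2, 1 point per mouse, coloured by group. Lgr5 and Nkd1 have the highest r, 0.842, and the 2 lowest Rnf43 points are normal diet control mice.

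Over all named genes tested, the closest to each of these 9 in the same deviations were mostly other genes. Lgr5 and Nkd1 were each other's closest. Sp5, a β-catenin target, was the closest to Axin2 (r = 0.73) and to Tbx3 (r = 0.8), and it rose on the Western diet by 1.02 among E171 mice and by 0.59 among control mice (limma, adjusted p = 3.22e-05 and 0.00965). Rnf43 was closest to Gas1 (0.837) and Bahcc1 (0.826), Rspo3 to Ehd3 (0.79) and Lhx2 (0.772), and Nkd1 after Lgr5 to Lhx2 (0.788). The second closest were Rnf152 for Lgr5 (0.806), Tbx3 for Axin2 (0.725) and Rad51d for Tbx3 (0.749). Wnt2 was closest to Man2c1os (0.802), Znrf3 to Adcy9 (0.753) and Ehbp1 (0.745), and Rhbg to Them7 (0.796) and Psmb9 (0.795). These are the highest of many correlations over 32 mice on shared arrays and are given as a description.

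Among the other Wnt ligands 9 of 18 listed genes were tested. On the Western diet 5 rose and 1 fell among E171 mice, and 4 rose and 1 fell among control mice, with medians of 0.83 and 0.44. Of all tested genes 22.1% rose and 31% fell among E171 mice, and 18.5% rose and 28.7% fell among control mice, which is the background for this list and those that follow. Wnt5a rose by 1.1 among E171 mice and 0.84 among control mice (limma, adjusted p = 0.000262 and 0.00406), and Wnt9a by 0.83 among E171 mice and 0.80 among control mice (adjusted p = 0.00352 and 0.00556). Wnt7b, at 0.15 among E171 mice and 0.44 among control mice, passed among control mice alone (adjusted p = 0.356 and 0.00721). Wnt10a was well above background in 6 of 8 Western diet E171 mice, 2 of 8 Western diet control mice and no normal diet mouse. It was called higher on the Western diet among E171 mice and among control mice (limma, adjusted p = 0.00153 and 0.0186). Its Western diet means include signals not well above background, so no size is given. Wnt9b, a ligand of central vein endothelium, differed by -0.24 among E171 mice and -0.25 among control mice (adjusted p = 0.25 and 0.246). Wnt4 rose by 1.19 among E171 mice and stood at 0.54 among control mice (limma, adjusted p = 0.000137 and 0.0648). Wnt5b rose by 0.85 among E171 mice and stood at 0.14 among control mice (adjusted p = 0.000421 and 0.571). Their interactions, 0.65 ± 0.34 and 0.71 ± 0.27, did not pass (adjusted p = 0.977 and 0.919). These 2 genes were named after their values were seen.

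Of 17 listed receptors 14 were tested, and 3 rose and 2 fell among E171 mice, and 3 rose and 4 fell among control mice, with medians of -0.05 and -0.11. Lgr4, the broadly expressed relative of Lgr5, fell by 0.42 among E171 mice and by 0.54 among control mice (limma, adjusted p = 0.00337 and 0.00032), and Lrp5, a Wnt co-receptor, fell by 0.19 among E171 mice and 0.24 among control mice (adjusted p = 0.0131 and 0.00247). Fzd4 rose by 1.03 among E171 mice and 0.61 among control mice (adjusted p = 1.27e-06 and 0.00123). Fzd9, at 0.29 among E171 mice and 0.75 among control mice, passed among control mice (adjusted p = 0.326 and 0.0134) and was well above background in 3 of 8 normal diet control mice. Of 15 other R-spondins and secreted inhibitors 8 were tested, and 3 rose and 2 fell among E171 mice, and 2 rose and 3 fell among control mice, with medians of 0.15 and -0.39. Notum, an enzyme that inactivates Wnt proteins, fell by 0.57 among E171 mice and by 0.60 among control mice (adjusted p = 4.5e-08 and 2.59e-08). Frzb rose by 1.38 among E171 mice and 1.35 among control mice (adjusted p = 8e-08 and 1.43e-07), and Dkk3 by 1.23 in both (adjusted p = 2.45e-07 and 3.1e-07). Dkk4, an inhibitor that blocks Lrp co-receptors, fell by 2.03 among control mice (limma, adjusted p = 0.00297). There it was well above background in 4 of 8 Western diet and 8 of 8 normal diet mice. Among E171 mice it stood at -0.12 (adjusted p = 0.858), with 5 of 8 Western diet and 7 of 8 normal diet mice well above background. Both differences rest in part on dim signals, and the interaction, 1.90 ± 0.77, did not pass (adjusted p = 0.919).

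Genes of Wnt secretion and signal transduction were tested for 20 of 21 listed, and 2 rose and 6 fell among E171 mice, and 1 rose and 6 fell among control mice, with medians of -0.02 and -0.09. Ctnnb1, β-catenin, differed by -0.03 among E171 mice and 0.01 among control mice (limma, adjusted p = 0.747 and 0.911). Porcn, which adds the lipid that Wnt proteins need for secretion, fell by 0.90 among E171 mice and by 1.04 among control mice (adjusted p = 6.56e-08 and 7.13e-09). Apc, a scaffold of the destruction complex, fell by 0.70 among E171 mice and 0.66 among control mice (adjusted p = 1.28e-07 and 5.27e-07), Nkd2 by 1.29 among E171 mice and 0.96 among control mice (adjusted p = 3.2e-08 and 4.58e-06), and Dvl1, a Dishevelled, by 0.40 among E171 mice and 0.32 among control mice (adjusted p = 1.02e-05 and 0.000271). For E171 against control on the Western diet 0 genes of these 4 lists passed.

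**Figure D4:**
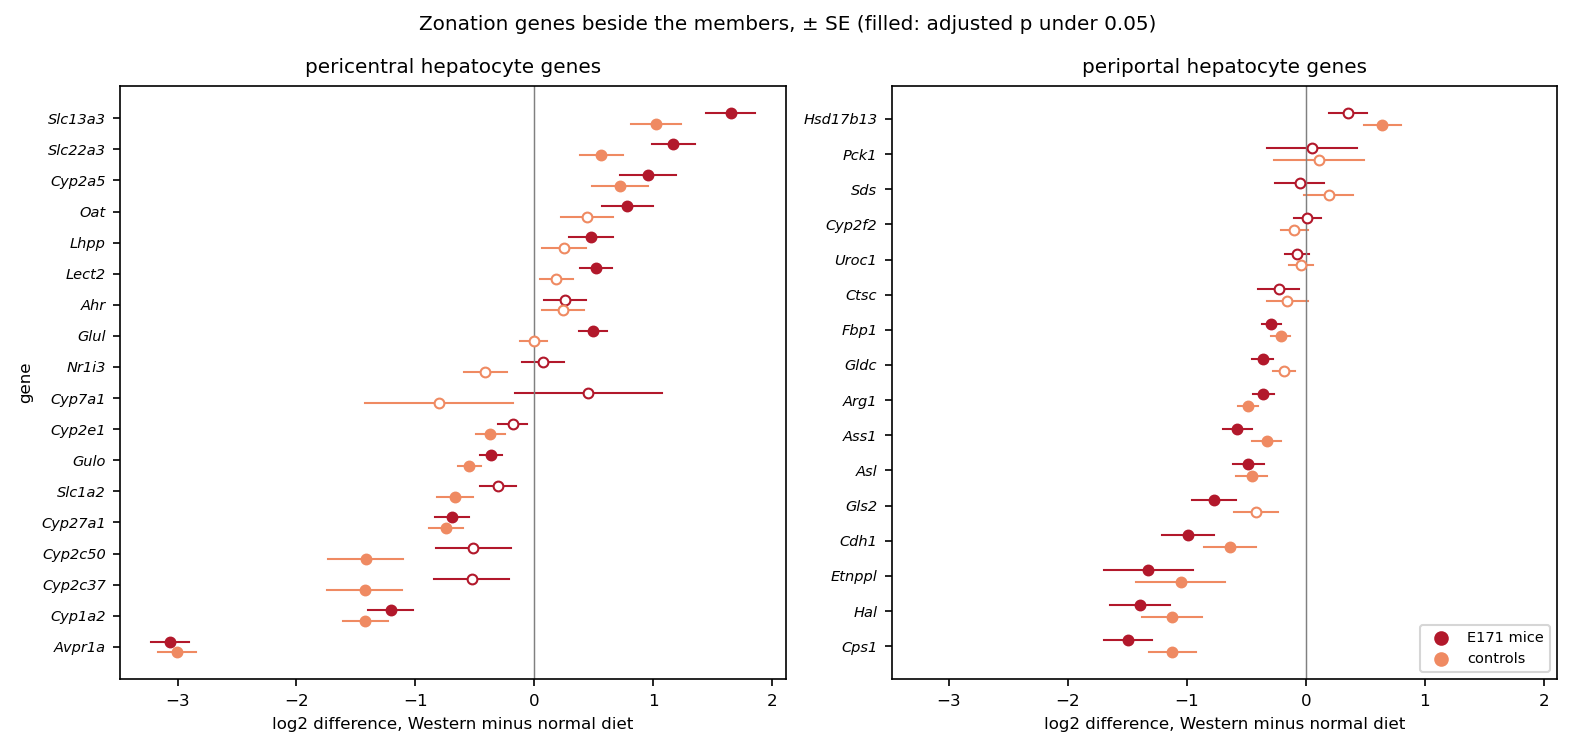
Log2 difference (x axis, Western minus normal diet, ± SE from the limma fit) of listed pericentral (left) and periportal (right) hepatocyte genes (y axis), for E171 mice and control mice. Filled points passed an adjusted p of 0.05. Avpr1a stands at -3.07 and -3.00 on the left, and Cps1 and Hal lie lowest on the right.

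Pericentral hepatocyte genes moved in both directions with the diet, while the periportal genes that passed mostly fell, as the plot of zonation genes shows. Of 18 pericentral genes 7 rose and 4 fell among E171 mice and 3 rose and 8 fell among control mice, with medians of 0.16 and -0.39, beside 53.2% of all genes called among E171 mice and 47.3% among control mice. Glul, glutamine synthetase, had levels of 6.71 to 7.22 in Western diet E171 mice, 5.93 to 7.10 in Western diet control mice, 6.25 to 6.64 in normal diet E171 mice and 6.52 to 6.81 in normal diet control mice. Its groups did not overlap among E171 mice, and it rose there by 0.49 ± 0.12 (limma, adjusted p = 0.000666), while it differed by -0.01 ± 0.12 among control mice (adjusted p = 0.971). The interaction for Glul, 0.50 ± 0.16, did not pass (adjusted p = 0.804). Oat, ornithine aminotransferase, rose by 0.78 among E171 mice (adjusted p = 0.00316) and stood at 0.44 among control mice (adjusted p = 0.0901). Slc13a3 and Slc22a3, solute carriers named after their values were seen, rose by 1.65 and 1.17 among E171 mice and by 1.02 and 0.56 among control mice. Against these, Avpr1a, the vasopressin receptor, fell by 3.07 among E171 mice and by 3.00 among control mice (adjusted p = 3.26e-15 and 8.63e-15). Cyp1a2 fell by 1.21 among E171 mice and 1.42 among control mice (adjusted p = 4.78e-06 and 5.03e-07), Gulo by 0.37 among E171 mice and 0.55 among control mice, and Cyp27a1 by 0.69 among E171 mice and 0.75 among control mice. Cyp2e1, at -0.18 among E171 mice and -0.37 among control mice, passed among control mice (adjusted p = 0.205 and 0.0123).

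Of 16 periportal genes 0 rose and 10 fell among E171 mice, and 1 rose and 8 fell among control mice, with medians of -0.36 and -0.27, beside 31% of all genes lower among E171 mice and 28.7% among control mice. Cps1, the first enzyme of the urea cycle, fell by 1.49 among E171 mice and by 1.12 among control mice (limma, adjusted p = 3.85e-07 and 3.64e-05). Hal, histidine ammonia-lyase, fell by 1.39 among E171 mice and 1.12 among control mice (adjusted p = 3.62e-05 and 0.000587), and Arg1, arginase, by 0.36 among E171 mice and 0.49 among control mice (adjusted p = 0.000907 and 3.07e-05). Hsd17b13, a lipid droplet protein, rose among control mice by 0.65 (adjusted p = 0.00132) and stood at 0.36 among E171 mice (adjusted p = 0.0581). For E171 against control on the Western diet 0 of the 18 pericentral and 0 of the 16 periportal genes passed.

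Marker lists of liver cell types also differed with the diet, and their part in the results above was not tested. The summed levels below add different probes, so the brightest probes weigh most and a sum does not measure cell number. Of 10 hepatocyte markers 9 fell in both arms, and their summed linear level lay between 5000 and 6870 in Western diet E171 mice, 4770 and 7460 in Western diet control mice, 6970 and 9270 in normal diet E171 mice, and 6950 and 8760 in normal diet control mice. Fgb fell by 0.97 among E171 mice and by 0.77 among control mice, Cps1 by 1.49 and 1.12, and Ahsg by 0.46 and 0.37. Central vein endothelial markers, beside which Rspo3 and Wnt2 are to be read, rose for 4 of 7 among E171 mice and 2 of 7 among control mice. Their summed level was 13 to 18.8 in Western diet E171 mice, 9.57 to 18.5 in Western diet control mice, 9.6 to 12.9 in normal diet E171 mice and 9.09 to 12.4 in normal diet control mice. Vwf rose by 0.998 among E171 mice and by 0.57 among control mice, Thbd by 0.42 among E171 mice and by 0.68 among control mice, and Selp by 0.47 among E171 mice. Thbd was also the 1 gene of these lists called between E171 and control on the Western diet, at -0.65 (limma, adjusted p = 0.0245). Sinusoidal endothelial markers rose for 2 of 10 and fell for 3 among E171 mice, and rose for 2 and fell for 2 among control mice, at sums of 59.1 to 77.1 in Western diet E171 mice, 58 to 81 in Western diet control mice, 75.6 to 86.1 in normal diet E171 mice and 67.1 to 84.6 in normal diet control mice. Clec4g fell by 0.63 among E171 mice and 0.42 among control mice, Kdr fell by 0.24 among E171 mice and 0.35 among control mice, and Lyve1 rose by 0.97 among E171 mice and 1.07 among control mice.

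Stellate cell markers, which bear on Rspo3 as well, rose for 5 of 10 and fell for 2 in both arms, with sums of 189 to 225 in Western diet E171 mice, 140 to 205 in Western diet control mice, 159 to 194 in normal diet E171 mice and 133 to 191 in normal diet control mice. Pdgfrb rose by 1.24 among E171 mice and by 1.07 among control mice, while Hhip fell by 1.73 among E171 mice and 2.02 among control mice and Ecm1 by 0.36 among E171 mice and 0.59 among control mice. Kupffer cell and macrophage markers rose for 7 of 10 in both arms, with sums of 154 to 351 in Western diet E171 mice, 112 to 299 in Western diet control mice, 79.9 to 155 in normal diet E171 mice and 57.4 to 201 in normal diet control mice. Cd68 rose by 1.5 among E171 mice and by 1.44 among control mice, Lyz2 by 1.62 and 1.51, and Cd5l by 1.21 and 1.11. Cholangiocyte markers rose for 6 of 7 among E171 mice and 5 of 7 among control mice, with sums of 15.6 to 77.8 in Western diet E171 mice, 12.4 to 66.1 in Western diet control mice, 7.19 to 14.8 in normal diet E171 mice and 6.98 to 15.8 in normal diet control mice. Spp1 rose by 1.83 among E171 mice and by 1.43 among control mice, Cftr by 1.14 and 0.92, and Krt7 by 1.05 and 1.04. Every listed marker of these 6 cell types passed the filter on dim probes, so none was absent in all groups.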

How the data were processed

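Liver RNA of 32 mice was hybridised to 1 Agilent array each. The authors' array files hold processed Cy3 intensity values on a linear scale, background-corrected per the file headers. The submitters' processing notes name Feature Extraction (Agilent, 10.10.1.1) and limma, with no role given. The deposited values of the same arrays are on a log2 scale. How they were made is not given in the sources used here, and they served as an alternative.

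Log2 processed signals were averaged over the spots of a probe, outlier spots left out, and the 75th percentile of all non-control probes was subtracted per array. Probes well above background on at least 6 of 8 arrays of a group were kept (35777 of 56605), and the probe with the highest mean stood for its gene. This gave 23644 genes, 18247 of them with a name, taken from RefSeq or else from the array files. All arrays were fitted with 4 group means in limma 3.58.1 (R 4.3.3, data.table version 1.17.8), and two-sided p-values were adjusted over all genes by Benjamini-Hochberg (threshold 0.05). The fit was tested on simulated data. The number of arrays limits the precision.

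Groups follow the sample titles. The 10 genes and all lists were chosen with earlier results of these data known. All 10 genes are described with all probes. Glul, Oat, Cyp2e1, Cyp1a2, Ctnnb1 and Wnt9b are always named, with up to 4 genes per pathway list and 3 per cell type list by lowest adjusted p among control mice, and the 2 closest genes by correlation, of which 1 is not reported here. Alternatives were quantile normalization, the percentile over probes detected on all arrays, normexp, the deposited values, 2 filters, slide or replicate number as a block, all probes singly and array weights. The percentile over spots and each mouse left out were chosen after seeing the data. Probe positions are those of mm9 in the files. Their place in exons or UTRs was not analysed here.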

Additional observations from a re-analysis of the deposited data

How the results depend on the processing

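Calls of Rhbg, Axin2 and Wif1 in the diet comparisons kept their direction and side of the threshold under the 11 processing alternatives that tested them and without each mouse in turn; Wif1 was not tested among probes well above background on all 32 arrays. Rspo3 among control mice lost its call without a filter on dim probes (0.23, adjusted p = 0.0656) and was -0.265 within slide 4. Lgr5 among control mice lost its call with array weights (-0.505, adjusted p = 0.0537). Nkd1 among E171 mice was called under 8 of 11 alternatives. The sign of some uncalled values near 0 turned. Tbx3 among E171 mice was 0.095 with quantile normalization, 0.048 with the percentile over probes detected on all arrays, 0.099 with normexp, 0.122 in the deposited values and 0.013 with array weights. With normexp, Wnt2 (-0.002) and Nkd1 (-0.006) turned for E171 on the normal diet, and Wif1 (-0.006), Wnt2 (-0.005) and Lgr5 (-0.002) for E171 over both diets. In the deposited values Znrf3 among control mice was 0.006, and Wnt2 (-0.026) and Nkd1 (-0.029) turned for E171 on the normal diet and Wnt2 (-0.027) over both diets. With array weights Wnt2 was -0.028 and -0.103 in these 2 contrasts, and Znrf3 averaged over both arms was -0.013. The cause was not tested.

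Without the filter 0.115% of genes were called for E171 over both diets and 0.00267% (1 gene) for the interaction. With array weights 0.723% were called for E171 on the Western diet and 0.66% over both diets, against 0.381% and 0.368% in the fit as reported. The labels do not say whether replicate numbers pair the mice, and the correlations do not settle it. Same-numbered mice of different groups had a median correlation of 0.0684 (-0.294 to 0.569), against -0.0185 for mice of different numbers. Of the same-numbered pairs, 23 of 48 were over 0.1. With the replicate block 0.723% of genes were called for E171 on the Western diet, 0.63% over both diets and 0.00423% for the interaction, and the 1 call of the 10 genes that changed was Nkd1 among E171 mice (0.251, adjusted p = 0.0375). Leaving out each mouse gave 2 to 4 of the 10 genes called among control mice, with 2 without normal diet control replicate 1, and 0 to 1 for E171 on the Western diet, where the 1 was Wif1 without Western diet control replicate 2 (adjusted p = 0.0446), a gene not well above background in that group. Of all genes 0.0804% (without Western diet control replicate 7) to 0.698% (without Western diet control replicate 1) were called for E171 on the Western diet, 0.199% (without Western diet E171 replicate 8) to 0.55% (without Western diet control replicate 8) over both diets, and 0 to 0.00423% (without Western diet E171 replicate 2) for the interaction. Uncalled values whose sign turned in these fits were Rnf43 (-0.094 to 0.225) and Wnt2 (-0.224 to 0.004) among control mice, Tbx3 (-0.147 to 0.097) among E171 mice, and Znrf3 (-0.004 to 0.053) averaged over both arms. For E171 on the normal diet they were Wnt2 (-0.03 to 0.093), Nkd1 (-0.058 to 0.062), Tbx3 (-0.01 to 0.295) and Rspo3 (-0.003 to 0.073). Over both diets they were Wnt2 (-0.061 to 0.058) and Lgr5 (-0.042 to 0.069), and in the interaction Wnt2 (-0.144 to 0.094).

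Scalings placed the median of all genes between -0.101 and -0.024 for the Western diet among control mice. In 40 groups of 8 values no single mouse lay apart from the others by Dixon's criterion. The criterion takes 1 extreme value at a time, so 2 mice that lie apart together can escape it. Rnf43 in normal diet control replicates 5 and 7 was 0.579 and 0.598, with the next value at 1.719. Dim signals limit Wif1, the second probes of Axin2 and Rspo3, Wnt10a and Dkk4.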
